A study of Mus musculus with 35 samples.

Results

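The microRNAs (miRNAs) of 2 mouse white fat depots, eWAT and aWAT, were compared in 6 small-RNA libraries, 3 of each depot, out of 35 samples in the series. They were chosen by the tissue named in their labels, and every miRNA row of the deposited table was kept, which gave 485 miRNAs. The other samples were 12 miRNA libraries of 4 further depots (iWAT, cWAT, mWAT and iBAT), used here to estimate the spread and to place both depots, and mRNA and Argonaute-binding libraries that were not used here. Both groups were whole fat pads of untreated C57BL/6J males aged 13 weeks (strain C57BL/6 in the sample labels), with no transgene or deletion, and the protocol that covers them names room temperature as their housing. eWAT is epididymal white adipose tissue, a visceral pad that lies along the epididymis. The labels do not spell out aWAT, so the pad is called by that name throughout. They do not say whether the 3 libraries of a depot came from separate mice, and the p-values measure only the spread between these libraries.

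A miRNA is a short RNA that is cut from a hairpin precursor and loaded into an Argonaute protein, which it guides to messenger RNAs, mainly through its seed, the bases near its 5′ end that pair with the target. Either arm of a hairpin (-5p or -3p) can become a mature miRNA, and hairpins that lie close together are often made from a common transcript. Many miRNAs are close to private to a cell type, such as miR-1, miR-133 and miR-206 in striated muscle, miR-34b, miR-34c and miR-449 in ciliated cells and the male reproductive tract, and miR-205 in stratified and glandular epithelium. A fat pad holds adipocytes together with vessels, nerves, immune cells and connective tissue, so its miRNA profile is a mixture.

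The mature sequences below belong to miRNAs on which the results turn, and they are printed to show which of these miRNAs share a seed. Each is written 5′ to 3′ with the seed, bases 2 to 8, in capitals, and was taken from RefSeq (GRCm38.p6), which held 399 of the 485 miRNAs. miR-375-3p, miR-34c-5p, miR-1a-3p and miR-133a-3p are named only. The first 4 were higher in eWAT and come from hairpins of the miR-34 and miR-449 families, and the fifth, miR-34a-5p, has the same seed as the first pair but did not pass the test.
miR-34b-5p: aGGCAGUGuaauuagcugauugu
miR-449a-5p: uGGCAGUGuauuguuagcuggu
miR-34b-3p: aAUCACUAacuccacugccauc
miR-34c-3p: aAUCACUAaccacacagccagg
miR-34a-5p: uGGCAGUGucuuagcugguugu
The next 4 were also higher in eWAT, and no 2 of them share a seed.
miR-335-5p: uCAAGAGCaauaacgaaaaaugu
miR-135a-5p: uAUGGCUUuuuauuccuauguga
miR-92b-3p: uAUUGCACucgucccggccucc
miR-196a-5p: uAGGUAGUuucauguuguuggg
The last 8 were higher in aWAT. The 3 hairpins of miR-183, miR-182 and miR-96 lie in 1 genomic cluster, yet their seeds differ.
miR-206-3p: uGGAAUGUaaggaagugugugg
miR-133b-3p: uUUGGUCCccuucaaccagcua
miR-205-5p: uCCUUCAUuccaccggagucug
miR-183-5p: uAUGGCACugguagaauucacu
miR-182-5p: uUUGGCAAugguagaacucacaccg
miR-96-5p: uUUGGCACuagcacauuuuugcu
miR-338-3p: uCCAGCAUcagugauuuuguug
miR-9-5p: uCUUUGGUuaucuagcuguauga

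Levels are the authors' normalized counts, reads scaled so that libraries of different depth can be compared. The eWAT libraries held 4122136, 5694349 and 4200661 miRNA reads and the aWAT libraries 2535190, 1791767 and 1815943, so low miRNAs were measured more finely in eWAT. An average of 3 reads, the floor used here for a miRNA listed at 0, was worth 1.67 normalized counts in eWAT and 3.68 in aWAT. Within a depot no pair of libraries differed by as little as sampling noise.

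Of 436 miRNAs with enough reads to test, 113 differed between eWAT and aWAT at an adjusted p below 0.05 (25.9% called; limma with Benjamini-Hochberg adjustment over all 436). 49 of them were higher in eWAT (11.2%) and 64 in aWAT (14.7%). The difference reached 1 on the log2 scale, a doubling, in 59 (13.5%), of which 19 were higher in eWAT (4.36%) and 40 in aWAT (9.17%). The median log2 difference over all 436 was 0.00, and among the 113 the median size was 1.04. The count rested on single libraries to some extent, since it was 75 without eWAT 1 and 74 without eWAT 3. The share of calls higher in eWAT was 43.4% with the authors' factors and 40% of 100 calls with reads scaled to the miRNA total (RPM). With the striated muscle list left out of that total it was 21.3% of 136 calls.

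The libraries of the depots did not overlap in 185 of the 436 miRNAs (42.4%), with eWAT above in 90 (20.6%) and aWAT above in 95 (21.8%). Among the 113 that passed the test, 110 did not overlap. The 3 that did were miR-214-5p, miR-103-3p and miR-101a-3p. 45 of the 113 passed under each of the alternative analyses that could be fitted to them. Before adjustment, 163 of the 436 had a p under 0.05 (37.4%).

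**Figure D1:**
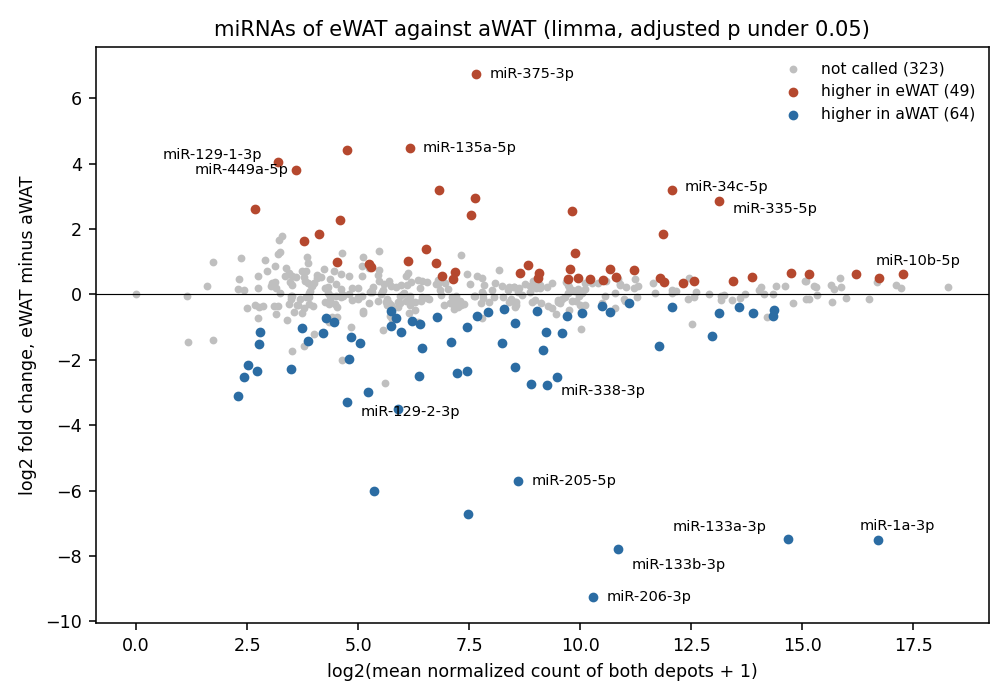
Difference between the depots (log2, eWAT minus aWAT, vertical axis) against the mean level (horizontal axis, log2 of the mean normalized count + 1) for the 436 miRNAs tested; each point is 1 miRNA, the 49 higher in eWAT and the 64 higher in aWAT are red and blue and the others grey. The striated muscle miRNAs stand far below the rest, and miR-375-3p, miR-135a-5p and the miR-34 and miR-449 arms form the upper edge.

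The widest differences were those of the striated muscle miRNAs, which regulate muscle differentiation and contraction genes and were far higher in aWAT. miR-206-3p, a miRNA of skeletal muscle and its satellite cells, stood at 5.17, 2.56 and 1.19 normalized counts in eWAT 1, 2 and 3 and at 4181, 1949 and 1352 in aWAT 1, 2 and 3. Every aWAT library was far above every eWAT library, and the log2 difference was -9.26 ± 1.50 (SE; limma, Benjamini-Hochberg adjusted p = 0.000395). The means differed 839-fold, a ratio that rests on very few eWAT reads. eWAT 3 lay below 3 reads, which were worth 1.78 normalized counts there. miR-133b-3p, whose hairpin lies beside that of miR-206 in chr1:20679010-20682887, stood at 12.3, 8.97 and 11.9 in eWAT and at 7333, 2907 and 856 in aWAT (-7.79 ± 1.24; limma adjusted p = 0.000358). Its 3 aWAT values spanned a wide range, but the lowest was still far above eWAT.

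miR-1a-3p, the most abundant miRNA of striated and heart muscle, had 860, 797 and 832 normalized counts in eWAT and 440919, 134457 and 59728 in aWAT. It was the second most abundant miRNA of aWAT, at 7.90% of reads on average, and its log2 difference was -7.52 ± 1.17 (limma adjusted p = 0.000312). miR-133a-3p, made from the same transcripts as miR-1a, stood at 181, 205 and 205 in eWAT and at 109314, 37738 and 10415 in aWAT (-7.47 ± 1.22; limma adjusted p = 0.000395). For both, aWAT 1 was highest and aWAT 3 lowest, while the eWAT libraries hardly differed from each other. miR-1a-1-5p, the other arm of 1 of the miR-1a hairpins, was listed at 0 in every eWAT library and at 134, 82.9 and 22.5 in aWAT, at least 48.0-fold higher against 3 reads per library. miR-133a-3p and miR-133b-3p are near-identical in sequence, so how reads were split between them is uncertain.

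Of the 6 tested miRNAs on the striated muscle list, 5 were higher in aWAT (14.7% over all miRNAs), with a median log2 difference of -7.50 against 0.00 over all miRNAs. The exception was miR-499-5p, a miRNA of heart and slow muscle fibres, at 11.6, 12.8 and 16.6 in eWAT and 63.8, 12.9 and 13.7 in aWAT, where only aWAT 1 stood out (-0.71 ± 0.59; limma adjusted p = 0.40). Summed, the list took 0.0403% to 0.0429% of the reads in eWAT. In aWAT 1, 2 and 3 it took 19.5%, 7.64% and 3.20%. miR-208b-3p was the list member at 0 in all eWAT libraries, and it was above 0 only in aWAT 1 among the aWAT libraries, at 9.11 normalized counts. The list's sum was 464 to 19282 in iWAT, 1273 to 25769 in cWAT, 3771 to 5319 in mWAT and 12598 to 23142 in iBAT, all below the lowest aWAT library at 72465. In whole pads, fewer cells of a type and less RNA per cell cannot be told apart.

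**Figure D2:**
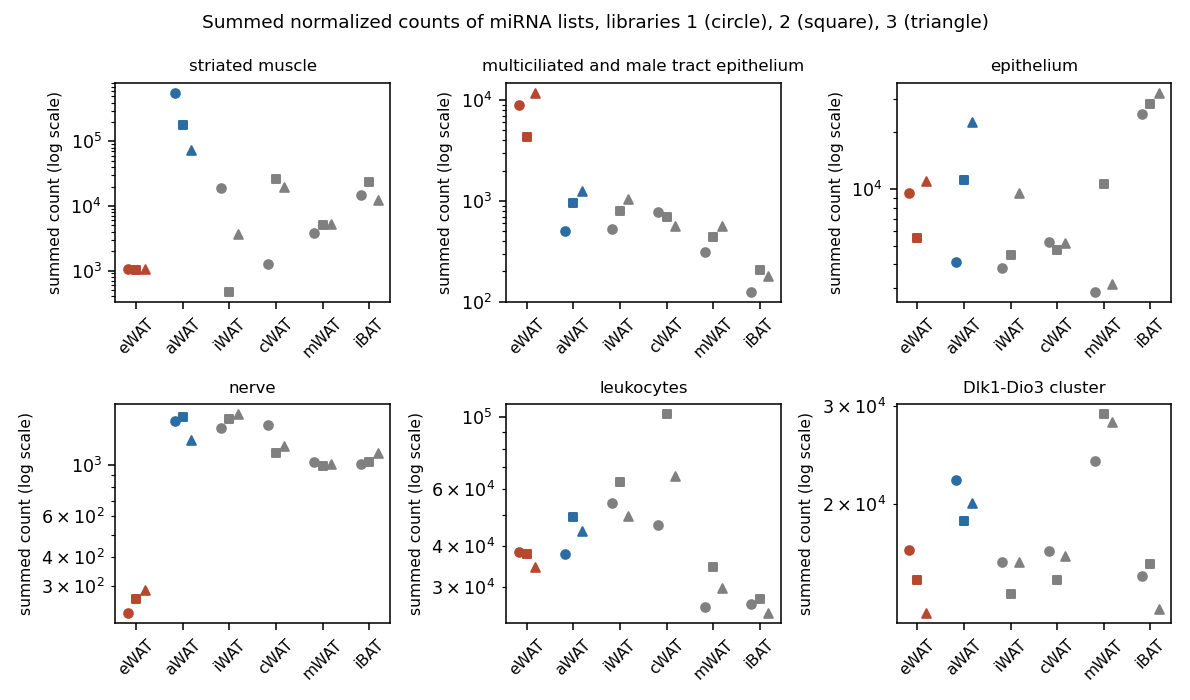
Summed normalized counts (vertical axis, log scale) of 6 miRNA lists, 1 panel each, by depot (horizontal axis), with 1 point per library (circle, square and triangle for libraries 1, 2 and 3), eWAT in red and aWAT in blue. The striated muscle sums of aWAT lie between 72465 and 562562 and those of eWAT between 1027 and 1072, while the ciliated and male tract sums are 4328 to 11720 in eWAT and 507 to 1244 in aWAT.

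Several miRNAs that are not on the muscle list followed the same order of libraries, highest in aWAT 1 and lowest in aWAT 3. miR-378a-3p, which lies in an intron of the mitochondrial regulator Ppargc1b, was at 16456, 15526 and 14907 in eWAT and 35598, 22159 and 19162 in aWAT (-0.66 ± 0.19; limma adjusted p = 0.0182). It did not pass without aWAT 1, where the difference was -0.40, or without eWAT 3, where it was -0.63. miR-378c and miR-378d, relatives of near-identical sequence that may share its reads, differed by -1.17 and -1.15. miR-149-5p stood at 258, 184 and 264 in eWAT against 1733, 610 and 404 in aWAT (-1.69 ± 0.39), and miR-128-3p at 143, 145 and 146 against 749, 337 and 276 (-1.50 ± 0.27), both picked after their values were seen. miR-486b-3p, an arm of a hairpin of red cells and muscle, was at 7.10, 9.40 and 2.37 in eWAT and 134, 38.8 and 25 in aWAT (-2.98 ± 0.69). The share of muscle miRNAs in a library moves with these values, and their part in the result was not tested.

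The miRNAs of ciliated cells and the male tract were higher in eWAT, and their list had the highest median of the lists tested. All 5 tested members of that list (miR-34b and miR-34c on both arms, and miR-449a-5p) were higher in eWAT, beside 11.2% of all miRNAs, with a median log2 difference of 3.20. miR-34c-5p stood at 8183, 3957 and 10924 normalized counts in eWAT 1, 2 and 3 and at 467, 869 and 1169 in aWAT. The lowest eWAT library was above the highest aWAT library, and the means differed 9.21-fold (log2 difference 3.18 ± 0.39; limma adjusted p = 2.82e-05). Its opposite arm, miR-34c-3p, was at 247, 115 and 247 in eWAT and between 17.1 and 23.3 in aWAT (3.20 ± 0.33; limma adjusted p = 9.32e-06). eWAT 2 was the lowest eWAT library for both arms.

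miR-34b-5p was at 46.5, 25.6 and 74.7 in eWAT, and in aWAT it was listed at 0 in libraries 1 and 3 and stood at 9.06 in library 2 (4.41 ± 0.89; limma adjusted p = 0.0023). miR-34b-3p was at 373, 219 and 448 against 22.8, 63.4 and 52.4 (2.94 ± 0.75; limma adjusted p = 0.0102). The miR-34b and miR-34c hairpins lie together in chr9:51103034-51103645 (GRCm38.p6), within the annotated spans of Btg4 and Hoatz. miR-449a-5p, whose hairpin lies on another chromosome within the span of Cdc20b, a gene of multiciliated cells, was at 26.5, 12 and 26.1 in eWAT and 0, 0 and 2.50 in aWAT (3.81 ± 0.84; limma adjusted p = 0.00421). As the printed sequences show, its seed GGCAGUG is also that of miR-34b-5p and of miR-34a-5p. The last, which is induced by p53 in many tissues, was at 442, 562 and 649 in eWAT and 362, 552 and 343 in aWAT, so its libraries overlapped (0.41 ± 0.20, 95% interval -0.02 to 0.84; limma adjusted p = 0.15).

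miR-375-3p, a miRNA of endocrine cells and glandular epithelium, had the largest difference in favour of eWAT. It was at 478, 199 and 517 in eWAT, listed at 0 in aWAT 1 and at 2.59 and 9.98 in aWAT 2 and 3 (6.75 ± 1.59; limma adjusted p = 0.00628). Under DESeq2 on recovered reads the adjusted p was 0.0755. Its levels in mWAT ran from 0 to 584 and overlapped those of eWAT. miR-135a-5p was at 130, 66.7 and 211 in eWAT and 4.56, 7.77 and 2.50 in aWAT, a 27.5-fold difference of means with no overlap (4.47 ± 0.62; limma adjusted p = 0.000103). In all of these miRNAs eWAT 2 was the lowest eWAT library. The summed list of ciliated and male tract miRNAs was lowest there too, at 4328 against 8876 and 11720 in eWAT 1 and 3. None of the 29 miRNAs on the list of the X-linked testis cluster was among the 485 analysed here.

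**Figure D3:**
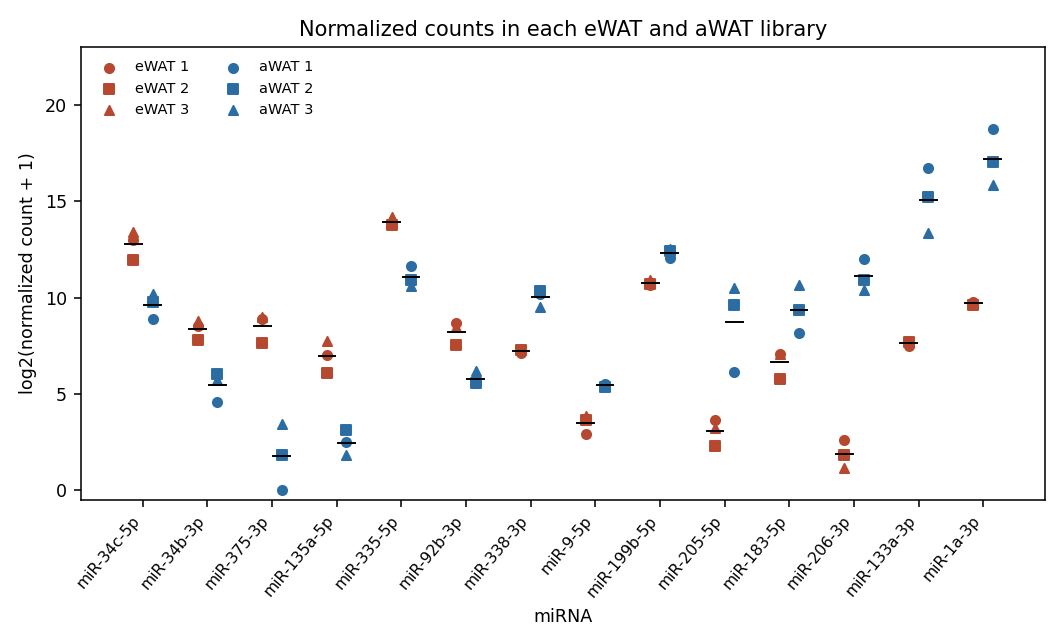
Levels as log2(normalized count + 1) (vertical axis) of selected miRNAs (horizontal axis) in each eWAT (red) and aWAT (blue) library, with black bars at the means. The points of the depots do not overlap for any miRNA shown, and for miR-1a-3p the eWAT values of 797 to 860 normalized counts lie almost on 1 point while those of aWAT run from 59728 to 440919.

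Both arms of miR-335, which lies within the imprinted gene Mest, a marker of expanding fat, were higher in eWAT. miR-335-5p (chr6:30741314-30741336) was at 14006, 14166 and 18937 in eWAT and 3223, 1928 and 1550 in aWAT. The depots were well apart, with means of 15703 ± 2802 and 2234 ± 878 (SD, n = 3), a log2 difference of 2.87 ± 0.24 (limma adjusted p = 8.01e-07). miR-335-3p was at 1314, 1225 and 2083 in eWAT and 329, 208 and 235 in aWAT (2.56 ± 0.27). The eWAT level of miR-335-5p also lay above the other depots, where the libraries ran from 2390 to 4100. miR-92b-3p was at 409, 182 and 349 in eWAT and 46.7, 46.6 and 72.4 in aWAT (2.43 ± 0.38; limma adjusted p = 0.000321). miR-92a-3p, which has the same seed and belongs to the growth-promoting miR-17-92 cluster, differed by -0.14 ± 0.16 (95% interval -0.48 to 0.20) and did not pass.

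Among 12 tested miRNAs of the adipogenesis list, 4 were higher in eWAT and none in aWAT, with a median log2 difference of 0.47, where 11.2% of all miRNAs tested were higher in eWAT. These were both miR-335 arms, miR-130a-3p and miR-103-3p. miR-130a-3p, which represses the adipocyte regulator Pparg, was at 1976, 1972 and 2150 in eWAT and 1283, 1356 and 974 in aWAT (0.77 ± 0.15; limma adjusted p = 0.00163). miR-103-3p, which acts on insulin signalling, overlapped between the depots at 5969, 6588 and 8104 against 4698, 4704 and 6028 (0.42 ± 0.14; limma adjusted p = 0.0415). It did not pass without eWAT 2, eWAT 3, aWAT 1 or aWAT 2, with the limma adjusted p at 0.0718 to 0.18. With RPM its limma adjusted p was 0.111, and 0.275 with the muscle list left out of the total. miR-27a-3p, an inhibitor of fat cell differentiation, lay close by, at 0.27 ± 0.10, and did not pass (limma adjusted p = 0.051).

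**Figure D4:**
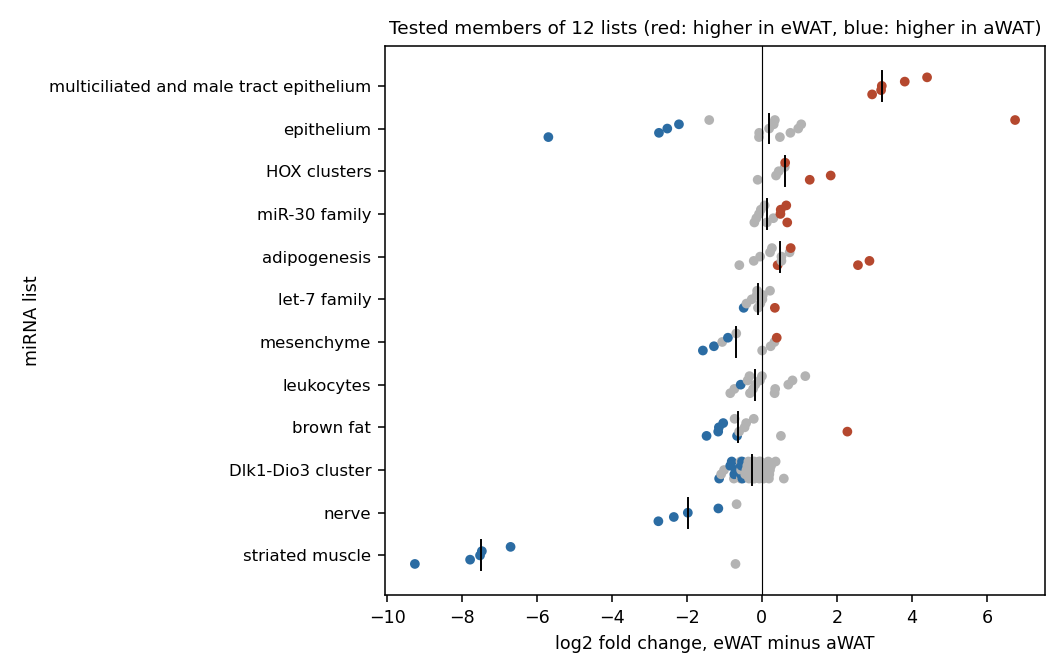
Log2 difference (eWAT minus aWAT, horizontal axis) of each tested miRNA in the lists described, 1 row per list (vertical axis) and 1 point per miRNA, red where called higher in eWAT, blue where called higher in aWAT and grey where not called, with black bars at the medians. Striated muscle and nerve lie to the left of 0, the ciliated and male tract list to the right, and most other lists are centred near 0.

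The miRNAs of nerve and glia that passed were lower in eWAT. 4 of the 5 tested on that list were higher in aWAT (14.7% over all miRNAs), with a median log2 difference of -1.98. These were both arms of miR-338 and of miR-9, so they are not 4 separate miRNA genes. The fifth, miR-219a-5p, a miRNA of myelinating glia, did not pass (-0.68 ± 0.27; limma adjusted p = 0.0765). miR-338-3p, a miRNA of neurons and oligodendrocytes within the span of the kinase gene Aatk, was at 140, 157 and 157 in eWAT and 1171, 1286 and 729 in aWAT. Every aWAT library was more than 4 times the eWAT level, and its adjusted p was the lowest of the 436 miRNAs (-2.76 ± 0.17; limma adjusted p = 2.84e-08). miR-338-5p was at 46.5, 53.0 and 64.6 against 268, 196 and 422 (-2.35 ± 0.26). The other depots had miR-338-3p at 530 to 1079, so it was eWAT that stood apart and not aWAT.

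miR-9-5p, a miRNA of neural progenitors and neurons, was at 6.46, 11.5 and 13.6 in eWAT and 44.4, 40.1 and 43.7 in aWAT (-1.98 ± 0.23; limma adjusted p = 1.57e-05). miR-9-3p was low in both depots but did not overlap, at 3.23, 2.99 and 3.56 against 9.11, 7.77 and 8.73. Some other miRNAs known mainly from brain, picked after their values were seen, lay the same way at low levels. They are not a list fixed beforehand, and how many brain miRNAs lay each way was not counted. miR-129-1-3p, given below, lay the other way. miR-129-2-3p was at 1.94, 2.56 and 8.30 in eWAT and 39.9, 72.5 and 29.9 in aWAT (-3.30 ± 0.43; limma adjusted p = 5.6e-05). miR-384-3p was listed at 0 in all eWAT libraries and at 6.84, 6.47 and 9.98 in aWAT, at least 4.66-fold higher against 3 reads per library. miR-137-3p was at 0, 2.14 and 0 against 11.4, 3.88 and 8.73 (-2.52 ± 0.59).

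The 2 hairpins of miR-129 went opposite ways on their 3p arms. Against the 3p arm of the miR-129-2 hairpin above, miR-129-1-3p was at 15.5, 11.1 and 21.9 in eWAT and listed at 0 in all aWAT libraries, at least 4.40-fold higher in eWAT (limma adjusted p = 0.000408, and 0.247 under DESeq2). Both hairpins carry the same 5p arm, miR-129-5p, which cannot be assigned to either. It was at 7.75, 3.85 and 10.1 in eWAT and 18.2, 24.6 and 17.5 in aWAT (-1.42 ± 0.36; limma adjusted p = 0.0102), and it did not pass without eWAT 2. The miR-129 arms were low in both depots, and the pair was picked after its values were seen.

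Some epithelial miRNAs were higher in aWAT. miR-205-5p, a miRNA of basal and glandular epithelium including the mammary gland, was at 11.6, 3.85 and 8.30 in eWAT and 68.4, 796 and 1436 in aWAT. The groups did not overlap, but aWAT 1 lay far below the other aWAT libraries (-5.70 ± 1.38; limma adjusted p = 0.00758). miR-31-5p, also of keratinocytes, was at 8.4, 5.56 and 7.12 against 34.2, 110 and 186 (-3.50 ± 0.92; limma adjusted p = 0.0124), and 0.0516 without aWAT 3. miR-183-5p, of the sensory-cell cluster in chr6:30165918-30169737, was at 134, 53.0 and 133 in eWAT and 280, 651 and 1611 in aWAT (-2.75 ± 0.58; limma adjusted p = 0.00308). Its cluster mates miR-182-5p and miR-96-5p differed by -2.52 ± 0.68 and -2.21 ± 0.66, again lowest in aWAT 1 among the aWAT libraries. miR-182-5p did not pass without eWAT 2 or without aWAT 3 (limma adjusted p up to 0.0619), and miR-96-5p did not without eWAT 1, eWAT 2, aWAT 2 or aWAT 3. iBAT had more of all 3 than aWAT, with means of 2196, 12729 and 3139.

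The miR-200 family, which holds epithelial cells in their state by repressing Zeb1 and Zeb2, was present in both depots and did not pass. miR-200b-3p was at 1913, 771 and 2214 in eWAT and 220, 1652 and 4663 in aWAT, and its difference of 0.31 had a 95% interval from -2.96 to 3.59. miR-200a-3p was at 2536, 1096 and 3385 against 330, 2150 and 4873. The aWAT libraries spread widely, with aWAT 1 lowest in both, and the interval spans both directions. Of the 15 tested on the epithelial list, 4 were higher in aWAT and 1, miR-375-3p, in eWAT, and these 5 calls are near the share of 25.9% over all miRNAs. The list's sum was 4099, 11203 and 22731 in aWAT 1, 2 and 3 and 9577, 5547 and 11124 in eWAT, so epithelial and muscle miRNAs ranked the aWAT libraries in opposite orders. The part of these sums in the other results was not tested.

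The HOX clusters set positional identity in the embryo, and the miRNAs that lie in them were higher in eWAT where they passed. Of the 7 tested, 3 were higher in eWAT and none in aWAT, with a median of 0.61, beside 11.2% of all miRNAs higher in eWAT. miR-196a-5p was at 23.3, 32.9 and 21.3 in eWAT and 4.56, 9.06 and 6.24 in aWAT (1.83 ± 0.20; limma adjusted p = 1.14e-05). Both pads had little of it, since it averaged 1160 in iWAT, 1152 in cWAT and 615 in mWAT, and was listed at 0 in iBAT. miR-196b-5p, with the same seed, differed by -0.11 ± 0.41 and overlapped. miR-615-3p, which lies in the HoxC cluster, was at 1524, 1159 and 1273 in eWAT and 784, 439 and 459 in aWAT (1.28 ± 0.22; limma adjusted p = 0.000745).

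miR-10b-5p, beside Hoxd4, was the second most abundant miRNA of eWAT. It was at 231151, 185679 and 153311 there and at 146293, 134880 and 91840 in aWAT, so the lowest eWAT library was just above the highest aWAT library (0.62 ± 0.20; limma adjusted p = 0.0314). miR-10a-5p, which shares its seed, differed by 0.38 ± 0.17 and did not pass (limma adjusted p = 0.126). Without eWAT 1 or eWAT 2 or aWAT 3, or with the muscle list left out of the total, miR-10b-5p did not pass either, with adjusted p up to 0.14 over the alternatives.

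Other abundant miRNAs with higher levels in eWAT moved by small amounts. Of 11 tested of the miR-30 family, which promotes fat cell differentiation, 4 were higher in eWAT (11.2% over all miRNAs) and none in aWAT. miR-30a-5p was at 133340, 124270 and 119585 in eWAT and 111678, 87506 and 71413 in aWAT (0.50 ± 0.14), and miR-30c-5p differed by 0.65 ± 0.14, whereas miR-30e-5p, with the same seed, differed by -0.15 ± 0.12 and did not pass. miR-125a-5p was at 113236, 82034 and 82772 against 70264, 55440 and 54240 (0.62 ± 0.19), and miR-191-5p at 41197, 40978 and 48940 against 30380, 22971 and 32279 (0.62 ± 0.20). These small differences hung on single libraries and on the scaling. miR-30a-5p did not pass without eWAT 1 or aWAT 3, miR-125a-5p without eWAT 1, aWAT 2 or aWAT 3, and miR-191-5p without any 1 of the eWAT libraries or aWAT 2 (limma adjusted p of 0.0542 to 0.131 in these fits). With RPM that left out the muscle list, miR-30a-5p and miR-191-5p did not pass and miR-125a-5p did. With only eWAT and aWAT in the fit, miR-125a-5p, miR-191-5p and all 4 miR-30 family calls did not pass. Those 4 were miR-30a-5p, miR-30a-3p, miR-30c-5p and miR-30d-3p. miR-708 was higher in eWAT on both arms, by 0.75 ± 0.14 and 0.76 ± 0.12, a pair picked after its values were seen. The most abundant miRNA of both depots, miR-143-3p of smooth muscle and fibroblasts, was at 347590 ± 40265 normalized counts in eWAT and 294479 ± 3099 in aWAT (SD, n = 3) and did not pass (0.23 ± 0.12; limma adjusted p = 0.185).

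Of the connective tissue miRNAs that passed, more were higher in aWAT. Of 9 tested on the mesenchyme list, 3 were higher in aWAT (14.7% over all miRNAs) and 1, miR-145a-3p, in eWAT (11.2%). The list's median log2 difference was -0.68. The 3 were miR-214-5p and both arms of miR-199b. miR-214-5p (-0.91), whose libraries overlapped, did not pass with RPM or with only eWAT and aWAT in the fit. It also did not pass without eWAT 1, eWAT 2, aWAT 2 or aWAT 3. miR-145a-3p differed by 0.39 ± 0.13 and was lost on leaving out any 1 library other than aWAT 1 (limma adjusted p of 0.053 to 0.163). With RPM that left out the muscle list, miR-145a-3p did not pass either (limma adjusted p = 0.178). miR-199b-5p, whose hairpin lies within the span of the dynamin gene Dnm1, was at 1602, 1689 and 1917 in eWAT and 4196, 5484 and 5970 in aWAT, a 3.00-fold difference with no overlap (-1.58 ± 0.15; limma adjusted p = 5.72e-06). miR-199b-3p was at 4411, 4258 and 5132 against 8991, 11299 and 13591 (-1.28 ± 0.14). The 3p arm of miR-199a has the same sequence, so its reads are included there. miR-199a-5p, which has its own sequence, differed by -0.68 ± 0.26 and did not pass (limma adjusted p = 0.064).

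On the brown fat list, 5 of 12 tested were higher in aWAT and 1 in eWAT, with a median of -0.64, beside 14.7% and 11.2% over all miRNAs. 4 of those 5 were miR-378 relatives. 3 of them are described above, and miR-378b, at 9.04, 6.41 and 5.93 in eWAT and 30.8, 11.7 and 9.98 in aWAT, differed by -1.03 ± 0.34 and did not pass without eWAT 2, eWAT 3 or aWAT 1. The fifth was miR-455-5p, at 11.6, 17.9 and 20.8 in eWAT and 41.0, 47.9 and 53.6 in aWAT (-1.48 ± 0.28; limma adjusted p = 0.00121). Both depots were well below iBAT, which averaged 228 for miR-455-5p and 225948 for miR-378a-3p. miR-193b-3p, which is needed for brown fat cells in culture, did not pass (-0.46 ± 0.17; limma adjusted p = 0.0508). miR-365-2-5p was the member higher in eWAT, at 36.2, 43.2 and 35 against 13.7, 9.06 and 2.50 (2.28 ± 0.48).

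On the list of the imprinted Dlk1-Dio3 cluster of chromosome 12, made from the maternal chromosome, 10 of 51 tested were higher in aWAT and none in eWAT, with a median of -0.26. miR-1247-5p is not on the list and lies further along chromosome 12, on the opposite strand. It was higher in eWAT (1.39 ± 0.38; limma adjusted p = 0.0145) and did not pass without eWAT 3 or aWAT 1. The share of all tested miRNAs higher in aWAT was 14.7%. miR-127-3p was at 8706, 7295 and 5951 in eWAT and 11216, 10056 and 10754 in aWAT (-0.56 ± 0.14; limma adjusted p = 0.0102), and it did not pass without eWAT 3. miR-381-3p was at 203, 202 and 186 against 299, 282 and 283 (-0.55 ± 0.13; limma adjusted p = 0.00592). The groups did not overlap for either, and the 10 differences ran from -0.52 for miR-329-5p to -1.14 for miR-127-5p. Only 3 of the 10, miR-127-5p, miR-369-3p and miR-381-3p, passed on leaving out each of the 6 libraries in turn. miR-329-5p was lost whichever library was left out, and miR-154-5p and miR-382-3p each on leaving out 5 of the 6 in turn.

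Few leukocyte miRNAs passed, beside 25.9% called over all miRNAs. The endothelial and red cell lists, with 2 and 5 tested, were too short to be read against that share. Of 15 leukocyte miRNAs tested, 1 was higher in aWAT (14.7% over all miRNAs) and none in eWAT (11.2%). The leukocyte call was miR-146a-5p, which dampens inflammatory signalling, at 13482, 12032 and 11239 in eWAT and 15718, 18705 and 20151 in aWAT (-0.57 ± 0.15; limma adjusted p = 0.0121, and 0.0539 without eWAT 3). miR-142a-5p, of blood cells, was at 7704, 8024 and 7110 against 6971, 9485 and 6633. Neither arm of the endothelial miR-126a passed, with differences of 0.28 and 0.41, and miR-486b-3p was the 1 of 5 red cell miRNAs to do so, with the difference of -2.98 given above, while miR-451a differed by -0.03 ± 0.22. Of 11 let-7 family members 1 passed in each direction, let-7e-5p at 0.34 and let-7i-5p at -0.49, beside 11.2% and 14.7% over all miRNAs. None of 6 miR-29 family members passed, beside 25.9% over all miRNAs. In the miR-17-92 cluster and its paralogs, 1 of 17 passed in each direction, miR-93-5p at 0.43 and miR-20a-5p at -0.50, beside the same shares of 11.2% and 14.7%. let-7e-5p did not pass without eWAT 3, aWAT 1 or aWAT 2, miR-93-5p did not without eWAT 3, aWAT 1 or aWAT 3, and miR-20a-5p did not without eWAT 1 or without aWAT 3. With RPM, let-7e-5p and miR-93-5p did not pass, whether the muscle list was in the total or left out.

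The liver and gut list had 1 of 4 tested higher in eWAT and none in aWAT, and 1 in 4 is about the 25.9% called over all miRNAs. It was miR-192-5p, at 7332, 3519 and 6964 in eWAT and 1550, 1580 and 1557 in aWAT (1.85 ± 0.63; limma adjusted p = 0.0419). The aWAT libraries were almost level, and eWAT 2 was again the lowest of eWAT. It did not pass without eWAT 1, without eWAT 3 or without any 1 of the aWAT libraries (limma adjusted p of 0.0781 to 0.13). miR-194-5p, from the same cluster, was at 217, 151 and 300 against 88.9, 89.3 and 101 and did not pass (limma adjusted p = 0.116). miR-122-5p, the main liver miRNA, was at 34.9, 6.84 and 2.37 in eWAT and 2.28, 0 and 6.24 in aWAT, with no clear order.

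Arms of a hairpin lay on the same side wherever both passed. The RefSeq hairpins gave 115 distinct pairs of arms with both arms tested, of which 9 had both called on the same side, 34 had 1 called, 72 had none, and none had arms called on opposite sides. Counting only the 101 pairs whose arms map to the same hairpins, which leaves out miR-129, the pairs called on both arms were 8. Clusters and seed groups were formed only from miRNAs that RefSeq held, which included 90 of the 113 called. miR-1a-3p, miR-133a-3p, miR-34c-5p, miR-378a-3p and miR-532-5p were among the calls left out. Groups that these would join were therefore counted without them. Among 38 such genomic clusters with at least 2 tested miRNAs (hairpins less than 10000 bases apart), 9 had at least 2 called on 1 side only, 1 of them through the arms of miR-9, and 1 had calls on both sides. That cluster on the X chromosome held miR-450a-5p and miR-450b-5p, higher in eWAT by 0.48 and 0.55, and miR-542-3p, higher in aWAT (-1.01 ± 0.33). miR-542-3p and miR-450b-5p did not pass on leaving out any 1 library other than aWAT 1, with the limma adjusted p up to 0.121 and 0.144 over all alternatives. Among 40 groups of RefSeq miRNAs with the same seed, 2 had at least 2 called on 1 side only, and 3 had calls on both sides. Those 2 were both of the miR-34 and miR-449 families printed above, in a count that leaves out the calls RefSeq did not hold. In 1 of the 3 with calls on both sides, miR-384-5p, higher in aWAT (-1.53 ± 0.45) but not past the threshold without eWAT 2, eWAT 3 or aWAT 2, has the seed GUAAACA of miR-30a-5p and miR-30c-5p, which were higher in eWAT.

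Against the 5 other depots in the same fit, 12 miRNAs were higher in eWAT than in each of them (2.75% of those tested), and 13 were lower than in each (2.98%). The 12 were miR-375-3p, miR-135a-5p, miR-129-1-3p, miR-449a-5p, miR-92b-3p, miR-130a-3p and both arms of miR-34b, miR-34c and miR-335. For miR-375-3p the mWAT libraries overlapped those of eWAT, as given above. Among the 13 were both arms of miR-338, miR-9 and miR-384. aWAT was above each of the other 5 depots in 7 (1.61%), and below all of them in none (0.0%). Those 7 were miR-206-3p, miR-133b-3p, miR-1a-3p, miR-133a-3p, miR-1a-1-5p, miR-149-5p and miR-199b-3p. These comparisons share the eWAT or aWAT libraries with each other, and each rests on 3 libraries a depot.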

How the data were processed

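Small RNA libraries were made with the TruSeq Small RNA kit, per the labels' protocols. The authors deposited 1 table of normalized counts per the file headers (a signal that, from its values, is reads divided by 1 factor per library) for 18 libraries, and the submitters' processing notes name DESeq, DESeq2, kallisto 0.45.0 and the builds GRCm38 and mm10 without roles. The sources used here do not give the aligner of the miRNA reads. In each library the deposited values were whole multiples of what 1 read is worth (100% of low values within 0.02 of a whole number), so whole read counts were recovered. Among the 6 libraries compared, 1 value was of exactly 1 read and 77 of exactly 2, so a single read may have been set to 0. Groups came from the labels' tissue.

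miRNAs were kept by filterByExpr on recovered reads (edgeR 4.0.16), 436 of 485. The other 49 averaged at most 8.90 normalized counts in either depot, and 2 of them were at 0 in all 6 libraries. The test was limma 3.58.1 with a mean-variance trend (R 4.3.3) on log2(normalized count + 1), with all 6 depots in 1 fit (12 residual degrees of freedom) and the contrast eWAT minus aWAT. Differences are on that scale, which understates the change of low miRNAs, and SE and 95% intervals are limma's. p-values were Benjamini-Hochberg adjusted over the 436 and called under 0.05. The script was tested on simulated data. The described miRNAs were named by rule (the 12 called with the largest differences each way with a mean of at least 100, the 6 with the largest difference in counts each way, from each list up to 4 called and 2 uncalled members, and their arm, seed and cluster mates); others, said to be so in the text, were picked after their values were seen, as were the members of the seed and cluster groups with calls on both sides. The members and lists were chosen with earlier results of these data known.

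Alternatives were TMM factors, RPM from the recovered reads, a pseudocount of 5, no filter, a mean of at least 100, edgeR and DESeq2 1.42.0 on the recovered reads, only eWAT and aWAT in the fit, the replicate number as a block, each library left out, and, added after seeing the data, RPM without the striated muscle list. Deviations of same-numbered libraries correlated within the range of those of other pairs, which cannot tell whether they came from 1 mouse. The authors' own comparisons in the table do not include this one and were not used.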

Additional observations from a re-analysis of the deposited data

How the results depend on the processing

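The 113 calls became 113 with TMM factors, 100 with RPM, 117 with a pseudocount of 5 or no filter, 125 with edgeR, 130 with DESeq2 and 123 with the replicate block. With only eWAT and aWAT in the fit, 62 passed, 26 higher in eWAT and 36 in aWAT, with 4 residual degrees of freedom. Requiring a mean of at least 100 left 225 tested and 41 called higher in aWAT. Leaving out each library gave 74 to 110 calls, 30 to 48 higher in eWAT and 44 to 62 in aWAT, with 30 higher in eWAT without eWAT 1 and without eWAT 3. RPM without the striated muscle list, an alternative chosen after seeing the data, gave 29 higher in eWAT and 107 in aWAT, with the median log2 difference over all miRNAs at -0.18. No named miRNA changed direction where called.

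Of the 58 named calls, edgeR, TMM factors, the pseudocount of 5, no filter and the replicate block lost 0. The mean of at least 100 lost 0 of the 38 that it still tested and says nothing about the others. RPM lost 5, DESeq2 lost 2 of the 57 for which it gave an adjusted p (none for miR-192-5p) and the fit of only eWAT and aWAT lost 23. RPM without the muscle list lost 9 of the 58 named calls, and 7 other named miRNAs then passed. The 9, each higher in eWAT, were let-7e-5p, miR-103-3p, miR-10b-5p, miR-145a-3p, miR-191-5p, miR-192-5p, miR-30a-3p, miR-30a-5p and miR-93-5p. miR-192-5p was also lost without eWAT 1, eWAT 3 or any of the aWAT libraries. Deviations of same-numbered libraries correlated at 0.0085, -0.020 and 0.24, and those of other pairs at -0.29 to 0.28. With so few libraries this cannot tell whether a number marks a shared mouse. With 3 libraries a depot and a lower depth in aWAT, miRNAs near 3 reads could not be resolved.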

Other observations

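Some late-numbered miRNAs passed in each direction. Those given here are not all that passed, since miR-2137, miR-3084-3p, miR-3473e, miR-3968 and miR-5126 also did. They were not counted against the share over all miRNAs. miR-1247-5p and miR-1981-3p were higher in eWAT, by 1.39 and 1.04. miR-1941-3p (-2.34), miR-6538 and miR-6937-5p were higher in aWAT. miR-1981-3p and miR-1941-3p were picked after their values were seen. miR-6538 was at 14.2, 33.3 and 16 normalized counts in eWAT and 43.3, 180 and 200 in aWAT (log2 difference -2.50 ± 0.78; limma adjusted p = 0.0278). miR-6937-5p was at 38.8, 65.0 and 24.3 against 82.0, 376 and 312 (-2.40 ± 0.70; limma adjusted p = 0.0207). In both, aWAT 1 was the lowest of the aWAT libraries, and both averaged more in mWAT, at 687 and 835, than in aWAT. Neither passed on leaving out any 1 library other than eWAT 2 and aWAT 1.

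miR-532-5p and miR-362-3p, picked after their values were seen, were lower in eWAT by small amounts. miR-532-5p was at 644, 639 and 636 in eWAT and 946, 1105 and 1016 in aWAT (-0.67 ± 0.10; limma adjusted p = 0.000127). miR-362-3p was at 240, 247 and 286 against 406, 509 and 512 (-0.88 ± 0.16; limma adjusted p = 0.00103). Of the 8 tested miRNAs that RefSeq placed in the X-linked cluster of miR-362, miR-362-3p was the 1 called. 1 of 8 is near the 14.7% of all tested miRNAs that were higher in aWAT. The log2 differences of the 8 ran from -0.88 to 1.25. miR-532-3p is 1 of the 8, so the miR-532 hairpin lies in the same cluster. RefSeq did not hold miR-532-5p, and its call is not in that count.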
